A study of Homo sapiens with 18 samples.

Results

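The core spliceosome and LSM genes encode the proteins that build the small nuclear ribonucleoproteins (snRNPs) of the splicing machine, and the LSM family. Rings with LSM proteins sit on U6 snRNA, on decaying mRNAs and in the U7 snRNP that trims histone pre-mRNAs. The genes were chosen by symbol: names that begin with SNRP, SNRNP, SF3A, SF3B, PRPF, U2AF or CWC, or with LSM and a digit. The symbols PHF5A, PLRG1, EFTUD2, CDC5L, SART1, SART3, SNU13 and SF1 were added. The rule found 68 of the 13661 genes in the table. The rule itself uses names and no measured value, but it was set with earlier results of these data known.

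HEK293 cells, a long-established line from human embryonic kidney, were the source of all samples. Per the labels, cells were given DMSO vehicle for 12 h, and a cytoplasmic lysate was spun through a sucrose gradient, which sorts mRNAs by how many ribosomes they carry. Each gradient was divided into heavy polysomes, light polysomes and monosomes (mRNAs with a single ribosome), with 3 replicates of each fraction, giving 9 libraries. The series also holds 9 libraries of cells given 100 µM minocycline, a tetracycline antibiotic, which are not analysed here, so every comparison is between fractions or between genes of vehicle cells of 1 cell line.

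Splicing removes introns in steps that these proteins carry out. Rings of Sm proteins wrap U1, U2, U4 and U5 snRNAs, and an LSM ring wraps U6. U1 binds the 5' splice site, SF1 and U2AF recognise the branch site and the 3' splice site before U2 settles on the branch site, and the U4/U6.U5 tri-snRNP then joins. The PRPF19 complex helps to form the active site, after which intron removal proceeds in a pair of reactions. Most Sm and LSM proteins are small, and each is built around the fold that forms the ring. The scaffold and helicase subunits of U2 and U5 are among the larger nuclear proteins. Room for ribosomes on an mRNA grows with the length of its coding sequence, which is why load was set against length.

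Reads assigned to genes in replicates 1, 2 and 3 numbered 17045699, 24441159 and 15103945 for heavy polysomes, 18948136, 16809945 and 19558832 for light polysomes, and 16128888, 13447139 and 16145486 for monosomes. The light library of replicate 2 stood apart: over all genes kept, its log2 values correlated at 0.939, 0.928 and 0.953 with heavy libraries 1, 2 and 3 and at 0.899 and 0.889 with light libraries 1 and 3. Light libraries 1 and 3 correlated with each other at 0.985. Results are therefore also given without that library or without gradient 2. The replicate number is given as a batch in the labels, and nothing there says that the batches were separate cultures, so p-values measure the spread between these samples, which may be technical. All 8 genes of a list that HEK293 cells express had a row, from NES with a mean of 8.4 reads per library to VIM with 6960.8. Of 6 markers of blood, liver, islet and fibroblast cells 1 had a row, COL3A1, with a mean of 10.1 reads, above that of NES.

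All 68 members passed the filter of a mean of at least 10 reads per library, which kept 12720 genes. Members were well covered: their mean ran from 54.3 reads per library for PRPF40B to 13751 for SNRPB, with a median of 1953.2 against 429.3 over all genes kept. Every member had reads in every library, and the lowest single count was 33. The libraries come from bulk lysates, in which fewer cells holding an mRNA and less of it per cell cannot be told apart.

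Core spliceosome and LSM mRNAs spread over nearly the whole scale of ribosome load, with the typical member at the level of the typical gene. The mean ribosome load (MRL) of a gene weights its share of signal in each fraction by the ribosomes an mRNA there is taken to carry, 6 for heavy polysomes, 2.5 for light polysomes and 1 for monosomes. Each fraction was scaled to the same typical gene, so MRL compares genes and says nothing of how much RNA a fraction held. The median member had an MRL of 3.17 ± 0.05 and the median gene kept 3.17 ± 0.01 (SD, n = 3 gradients). PRPF19, the ubiquitin ligase that names its complex, had the highest mean of the members at 4.99 ± 0.45, and LSM10, a subunit of the U7 snRNP that trims histone pre-mRNAs, the lowest at 1.14 ± 0.04 (SD, n = 3).

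The test asked, over the 3 gradients, whether a gene's log2 MRL differed from that of the median gene (limma, Benjamini-Hochberg adjusted p under 0.05). Of the 68 members, 22 were higher (32.4%, against 22% of all genes tested) and 23 were lower (33.8%, against 24.7%), while 23 passed in neither direction. Called members thus took a larger share than called genes in both directions. Without gradient 2, 25 members were higher and 24 lower, and without gradient 1, 13 were higher and 19 lower. When MRL was replaced by the summed share of light and heavy polysomes, 13 were higher and 12 lower. Among the members followed by name in this test, that measure ended the calls of CWC15, LSM14B, SF1, SF3B5, SNRNP25, SNRNP70, SNRPA and SNU13. Their limma adjusted p ran from 0.0815 to 0.394. Other members, not followed by name, lost their calls too.

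**Figure D1:**
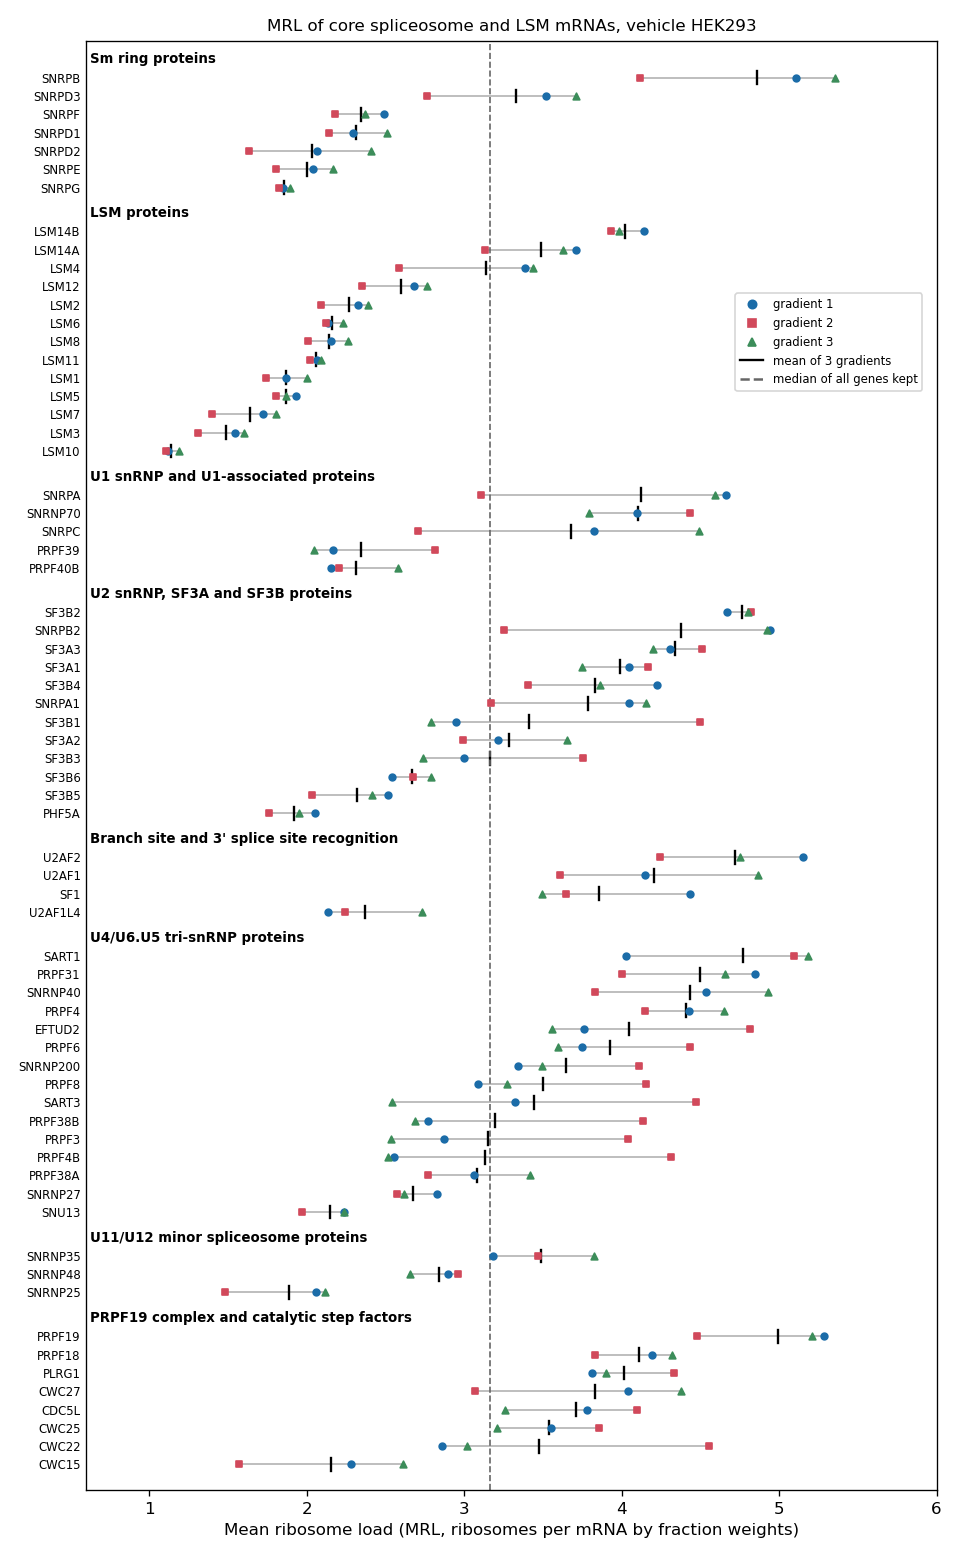
Mean ribosome load (MRL, x axis, ribosomes per mRNA by the fraction weights) of 67 members, grouped by role; coloured points are the 3 gradients, the black bar is their mean and the dashed line is the median of all genes kept (3.17). The LSM and Sm rows lie mostly left of the line, 10 of 13 and 5 of 7 called lower, and members such as PRPF19 (4.99), SNRPB (4.86) and SF3B2 (4.76) lie far right of it.

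Sm ring proteins, which encircle U1, U2, U4 and U5 snRNAs, were mostly on few ribosomes. Of the 7 Sm genes, 5 were called lower (SNRPD1, SNRPD2, SNRPE, SNRPF and SNRPG), 1 higher (SNRPB), and SNRPD3 passed in neither direction. Their median MRL was 2.28 ± 0.13 (SD, n = 3 gradients), and the median coding length was 354 nt, against 1404 nt over the genes kept. The tissue-restricted Sm gene SNRPN is not analysed here.

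The coding sequences of SNRPG, LSM10 and SNRPD3 are shown because they carry the contrast that follows: SNRPG is the shortest of the members, and LSM10 and SNRPD3 are nearly equal in length and far apart in load. SNRPG is given whole and the other two by their first 300 bases, with start codons and the SNRPG stop codon in capitals; the sequences are those of the GENCODE 29 transcripts on GRCh38, where SNRPG spans chr2:70281362-70293771 on the minus strand, LSM10 chr1:36391238-36397892 on the minus strand and SNRPD3 chr22:24555503-24609980 on the plus strand.
SNRPG: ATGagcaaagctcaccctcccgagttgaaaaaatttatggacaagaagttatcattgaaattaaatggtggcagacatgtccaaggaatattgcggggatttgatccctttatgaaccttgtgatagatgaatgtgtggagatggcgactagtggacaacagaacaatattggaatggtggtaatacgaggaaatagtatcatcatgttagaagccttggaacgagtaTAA
LSM10: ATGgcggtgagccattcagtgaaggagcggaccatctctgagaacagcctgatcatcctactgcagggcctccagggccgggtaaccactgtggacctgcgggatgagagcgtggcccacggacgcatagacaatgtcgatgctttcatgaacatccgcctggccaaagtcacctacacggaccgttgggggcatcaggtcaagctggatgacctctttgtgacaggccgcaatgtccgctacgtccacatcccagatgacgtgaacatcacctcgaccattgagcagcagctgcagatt
SNRPD3: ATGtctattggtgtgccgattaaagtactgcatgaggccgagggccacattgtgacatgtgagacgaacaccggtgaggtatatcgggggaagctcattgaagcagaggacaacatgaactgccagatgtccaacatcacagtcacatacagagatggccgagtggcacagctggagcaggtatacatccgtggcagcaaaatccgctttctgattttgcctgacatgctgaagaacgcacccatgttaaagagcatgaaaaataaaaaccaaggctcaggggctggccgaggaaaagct
The 3 coding sequences hold 76, 123 and 126 codons before the stop, in that order.

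SNRPG, the smallest Sm subunit, had 5.6%, 6.57% and 4.75% of its signal in heavy polysomes in gradients 1, 2 and 3, 37.7%, 33.2% and 43.7% in light polysomes, and 56.6%, 60.3% and 51.5% in monosomes. Monosomes led in each gradient, and no heavy value reached any light one. Its MRL was 1.85, 1.83 and 1.89, a log2 difference of -0.77 from the median gene (SE 0.09, limma adjusted p = 0.000613). SNRPE, an Sm subunit that is mutated in a hereditary loss of hair, had an MRL of 2.04, 1.80 and 2.16 and a log2 difference of -0.66 (SE 0.10, adjusted p = 0.00146). GENCODE names 20 pseudogenes after SNRPG and 9 after SNRPE, so their reads are uncertain where copies share sequence.

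SNRPB, which gives the SmB and SmB' proteins by alternative splicing, stood at the other end of the ring. It had 79.1%, 52.4% and 84.4% of its signal in heavy polysomes, 10.2%, 33.4% and 8.95% in light polysomes and 10.7%, 14.2% and 6.69% in monosomes. The heavy share was above both other shares in each gradient, by least in gradient 2. MRL was 5.11, 4.12 and 5.35, and the log2 difference 0.61 (SE 0.09, limma adjusted p = 0.00139). SNRPD3 lay between, with 38.7%, 22.4% and 42.1% in heavy polysomes, 39.1%, 43.1% and 40.4% in light polysomes and 22.3%, 34.6% and 17.5% in monosomes. Its MRL of 3.52, 2.76 and 3.71 lay on both sides of the median gene, with a log2 difference of 0.06 (SE 0.11, adjusted p = 0.66). Exons of SNRPB and SNRPD3 overlap those of other genes over 20% and 24.6% of their bases, and without a stated use of strand such reads cannot be assigned with certainty.

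LSM proteins were the lightest of the 8 role groups by median, at 2.13 ± 0.10 (SD, n = 3 gradients). Of 13 LSM genes 10 were called lower, 1 was called higher (LSM14B), and LSM4 and LSM14A passed in neither direction. LSM2, LSM3, LSM5, LSM6 and LSM7, which are shared by the nuclear U6 ring and the cytoplasmic decay ring, were all called lower, and so were LSM8 and LSM1, the subunits that tell the nuclear ring from the cytoplasmic one. LSM4, the other shared subunit, had an MRL of 3.38, 2.59 and 3.44, with 1 gradient below the median gene and the others above it.

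LSM10 was found mostly in monosomes. It had 0.972%, 1.66% and 1.88% of its signal in heavy polysomes, 4.81%, 1.46% and 6.28% in light polysomes and 94.2%, 96.9% and 91.8% in monosomes. No other member had a monosome share this high. Its MRL was 1.12, 1.10 and 1.19, a log2 difference of -1.48 from the median gene (SE 0.08, limma adjusted p = 7.69e-05). LSM11, its partner in the U7 ring, had an MRL of 2.06, 2.02 and 2.09 with 67.3%, 67.3% and 69.3% in monosomes. The pair therefore shared a low load, with LSM11 holding more heavy signal (16.4%, 15.1% and 18%) than LSM10 in each gradient.

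LSM3 had 2.35%, 3.64% and 3.14% of its signal in heavy polysomes, 28.5%, 8.24% and 29.6% in light polysomes and 69.1%, 88.1% and 67.3% in monosomes. In gradient 2 its light share was far below that in the other gradients and its monosome share above. The MRL of LSM3 was 1.55, 1.31 and 1.6, a log2 difference of -1.10 (SE 0.10, limma adjusted p = 0.000224). LSM7 followed at 1.72, 1.4 and 1.81, a log2 difference of -0.96 (SE 0.11, adjusted p = 0.000502). LSM14B and LSM14A, larger relatives that act in P-bodies and translational repression rather than in the rings, were the highest LSM genes. LSM14B had an MRL of 4.14, 3.93 and 3.98 and a log2 difference of 0.34 (SE 0.08, adjusted p = 0.00798; 0.103 without gradient 1). LSM14A had 3.71, 3.13 and 3.63 and a difference of 0.14 (SE 0.09, adjusted p = 0.251; 0.0322 without gradient 2).

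U1 proteins split by kind. The U1 snRNP subunits SNRNP70 and SNRPA were called higher, and PRPF39 and PRPF40B, homologs of yeast U1 proteins, were called lower. SNRPC, the third U1-specific subunit, passed in neither direction. SNRNP70 had an MRL of 4.09, 4.43 and 3.79 (log2 difference 0.37, SE 0.08, limma adjusted p = 0.00717). SNRPA, which binds a stem-loop of U1 snRNA, had 4.66, 3.11 and 4.59, with gradient 2 far below the others and under the median gene (log2 difference 0.36, SE 0.12, adjusted p = 0.0418; 0.233 without gradient 1 and 0.14 without gradient 3). PRPF40B had 2.15, 2.20 and 2.58 (log2 difference -0.46, SE 0.10, adjusted p = 0.00686; 0.0638 without gradient 1) and PRPF39 2.17, 2.82 and 2.04 (log2 difference -0.45, SE 0.11, adjusted p = 0.0131; 0.0707 without gradient 1). PRPF40B is the member with the fewest reads and shares 48.7% of its exon bases with other genes. GENCODE names 18 pseudogenes after SNRPC, whose MRL was 3.83, 2.71 and 4.49.

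Of 12 genes of U2 and its SF3A and SF3B parts, which clamp the branch site, 5 were called higher (SF3B2, SNRPB2, SF3A3, SF3A1 and SF3B4) and 2 lower (SF3B5 and PHF5A). Their median MRL was 3.55 ± 0.20 (SD, n = 3 gradients). SF3B2, a large SF3B subunit, had 69.2%, 69.2% and 72.7% of its signal in heavy polysomes, 14%, 24.1% and 10.9% in light polysomes and 16.9%, 6.75% and 16.4% in monosomes, and an MRL of 4.67, 4.82 and 4.80 (log2 difference 0.59, SE 0.07, limma adjusted p = 0.000602). Its heavy share was steady across gradients, unlike that of SNRPB2. SNRPB2, the U2B'' protein, had 75.3%, 31.5% and 73.7% in heavy polysomes and an MRL of 4.94, 3.25 and 4.92 (log2 difference 0.44, SE 0.12, adjusted p = 0.02; 0.081 without gradient 1). PHF5A and SF3B5, which are small subunits of SF3B, were at the low end, and SF3B6, another small one, had an MRL of 2.54, 2.68 and 2.79 and was not called (adjusted p = 0.0544). PHF5A had an MRL of 2.05, 1.76 and 1.95 (log2 difference -0.72, SE 0.10, adjusted p = 0.000969) and SF3B5 2.52, 2.03 and 2.41 (log2 difference -0.45, SE 0.10, adjusted p = 0.00794).

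SF3B1, the branch site scaffold that is mutated in blood cancers, passed in neither direction. Its MRL was 2.95, 4.50 and 2.79, with 28.9%, 64.6% and 25.8% of its signal in heavy polysomes. Gradient 2 thus put SF3B1 among the heavily loaded members, and the other gradients put it under the median gene.

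Genes for branch site and 3' splice site recognition had the highest role group median, 4.01 ± 0.35 (SD, n = 3 gradients). U2AF2, the U2AF65 subunit that binds the polypyrimidine tract, had 80.6%, 53.6% and 72.4% of its signal in heavy polysomes, 8.36%, 37.4% and 8.81% in light polysomes and 11.1%, 8.92% and 18.8% in monosomes. Its MRL of 5.15, 4.24 and 4.75 gave a log2 difference of 0.57 (SE 0.08, limma adjusted p = 0.00117). U2AF1, which reads the AG at the 3' splice site, had an MRL of 4.15, 3.61 and 4.86 (log2 difference 0.40, SE 0.10, adjusted p = 0.0111; 0.0996 without gradient 3). SF1, the branch site binding protein, had 4.43, 3.65 and 3.49 (log2 difference 0.28, SE 0.09, adjusted p = 0.0405; 0.458 without gradient 1). U2AF1L4, a U2AF1 paralog, went the other way at 2.13, 2.24 and 2.73 (log2 difference -0.43, SE 0.11, adjusted p = 0.0119; 0.114 without gradient 1). U2AF1L4 shares 30.3% of its exon bases with other genes, and GENCODE holds a near-identical copy of U2AF1, so both are uncertain to that extent.

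Among the 15 genes of the U4/U6.U5 tri-snRNP, which carries the catalytic scaffold and the helicases, 6 were called higher (SART1, PRPF31, SNRNP40, PRPF4, EFTUD2 and PRPF6) and SNU13 was called lower. The group median was 3.62 ± 0.45 (SD, n = 3 gradients). SART1, a tri-snRNP subunit needed for splicing, had an MRL of 4.03, 5.09 and 5.19 (log2 difference 0.58, SE 0.09, limma adjusted p = 0.00167), with 56%, 78.5% and 80.3% of its signal in heavy polysomes. PRPF31, a U4 protein mutated in retinitis pigmentosa, had 4.84, 4 and 4.65 (log2 difference 0.50, SE 0.08, adjusted p = 0.0022). SNU13, the small protein that binds the U4 kink-turn and box C/D snoRNAs, had 2.24, 1.97 and 2.24 (log2 difference -0.56, SE 0.10, adjusted p = 0.0025). SNRNP27, second lowest of the group, had 2.83, 2.58 and 2.62 (log2 difference -0.24, SE 0.09, adjusted p = 0.0564).

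The largest tri-snRNP genes passed in neither direction. PRPF8, the scaffold of the active site, had an MRL of 3.08, 4.15 and 3.27 (log2 difference 0.13, SE 0.10, limma adjusted p = 0.321). SNRNP200, the helicase that unwinds U4 from U6, had 3.34, 4.11 and 3.49, above the median gene in each gradient (log2 difference 0.20, SE 0.09, adjusted p = 0.108). Gradient 2 was the highest for both. The kinase PRPF4B spread furthest of the members, at 2.56, 4.31 and 2.52 (mean 3.13 ± 1.02, SD, n = 3), with 22.5%, 58.9% and 20.4% of its signal in heavy polysomes.

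The U11/U12 proteins of the minor spliceosome, which removes a rare class of introns, had a median of 2.84 ± 0.16 (SD, n = 3 gradients). SNRNP25 was called lower, with an MRL of 2.06, 1.48 and 2.12 (log2 difference -0.77, SE 0.12, limma adjusted p = 0.00197) and a monosome share of 42.8%, 83.3% and 43.8%. SNRNP48 had 2.89, 2.96 and 2.65 (log2 difference -0.16, SE 0.09, adjusted p = 0.182) and SNRNP35 3.18, 3.47 and 3.82 (log2 difference 0.14, SE 0.09, adjusted p = 0.249), neither passing. SNRNP35 shares 40.1% of its exon bases with another gene.

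In the PRPF19 complex and among the step factors, 3 of 8 genes were called higher (PRPF19, PRPF18 and PLRG1) and 1 lower (CWC15), with a median of 3.78 ± 0.20 (SD, n = 3 gradients). PRPF19 had 82.6%, 60.3% and 81.1% of its signal in heavy polysomes, 10.3%, 30.8% and 10.4% in light polysomes and 7.07%, 8.85% and 8.57% in monosomes. Its MRL of 5.29, 4.48 and 5.21 gave a log2 difference of 0.65 (SE 0.08, limma adjusted p = 0.000612). PRPF18, a factor of the second reaction, had 4.19, 3.83 and 4.32 (log2 difference 0.38, SE 0.08, adjusted p = 0.00642; 0.0563 without gradient 1), and it shares 48.5% of its exon bases with other genes. CWC15, a partner of CDC5L and PLRG1, had 2.28, 1.57 and 2.61 (log2 difference -0.59, SE 0.14, adjusted p = 0.0106). CWC22, which places the exon junction complex, had 2.86, 4.55 and 3.02 (log2 difference 0.10, SE 0.13, adjusted p = 0.552); its value was -0.11 without gradient 2.

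**Figure D2:**
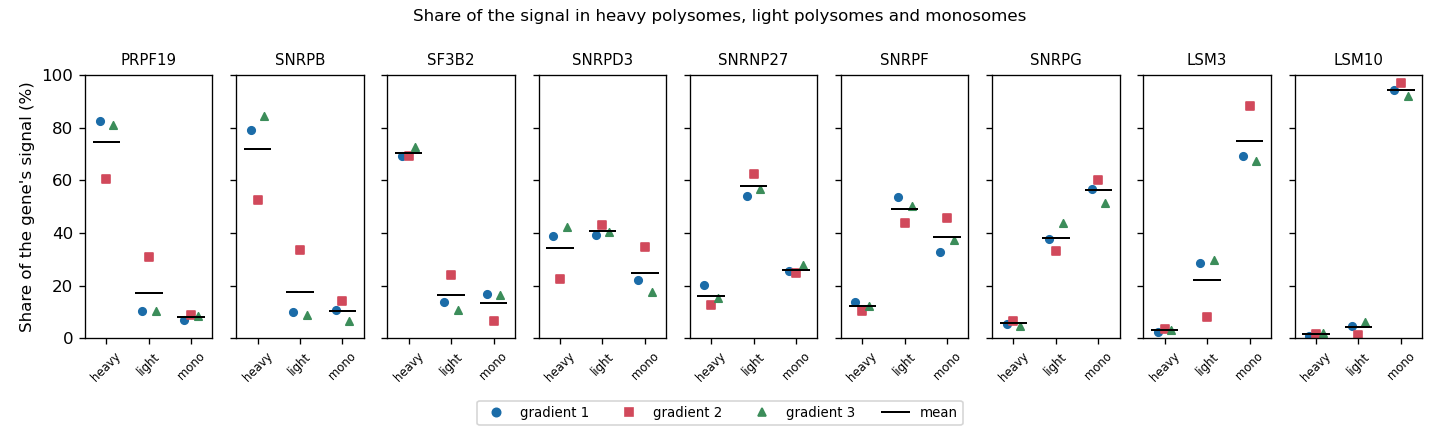
Share of a gene's signal (y axis, percent) in heavy polysomes, light polysomes and monosomes for 9 members, ordered from high to low load; points are the 3 gradients and the bar is their mean. PRPF19 lies between 60.3% and 82.6% in heavy polysomes, SNRNP27 peaks in light polysomes, and LSM10 lies between 91.8% and 96.9% in monosomes.

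Heavy polysomes were compared with monosomes on log2(normalized count + 1), a scale that understates the change of low genes. Of the 68 members, 21 were higher in heavy polysomes (30.9%, against 24.7% of all genes) and 23 lower (33.8%, against 24.4%), with a median log2 difference of 0.28 for members and 0.13 for all genes. PRPF19 (3.18, SE 0.50, limma adjusted p = 0.000274) and SNRPB (2.81, SE 0.54, adjusted p = 0.00105) led the heavy side. SF3B2 (2.51), U2AF2 (2.47) and SART1 (2.38) followed. LSM10 led the monosome side at -6.01 (SE 0.53, adjusted p = 7.9e-06), then LSM3 at -4.63 (SE 0.68, adjusted p = 0.000188), LSM7 at -3.64, SNRPG at -3.32 and SNRNP25 at -3.01. All 3 heavy values lay above all 3 monosome values for 24 members and below them for 26, against 31.4% and 29% of all genes kept. Without the light library of replicate 2, which enters this fit through its spread alone, 24 members were higher and 24 lower; without gradient 1, 10 were higher and 16 lower.

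Heavy polysomes were also compared with light polysomes. In that contrast 17 members were higher in heavy polysomes (25%, against 14.7% of all genes) and 19 lower (27.9%, against 17.5%), with a median log2 difference of 0.40 for members and 0.05 for all genes. SART1 was highest at 2.5 (SE 0.49, limma adjusted p = 0.00682), followed by PRPF19 at 2.31, SNRPB at 2.28, U2AF2 at 2.27 and SF3B2 at 2.19. SNRPG was lowest at -2.76 (SE 0.62, adjusted p = 0.00803), followed by LSM3 at -2.67, LSM6 at -2.28, SNRNP25 at -2.14 and SNRPF at -2.02. All heavy values lay above all light values for 21 members and below them for 16, against 21.3% and 22.1% of all genes kept.
The heavy over light calls rested on few libraries: without gradient 1 or without gradient 3 limma called 0 members in either direction (and 0 and 1 of the 12720 genes tested, without gradient 1 and without gradient 3), although at an unadjusted p under 0.05 it still had 13 higher and 16 lower without gradient 1, and 12 higher and 19 lower without gradient 3. Without gradient 2 there were 30 higher and 22 lower, and without its light library alone 26 higher and 21 lower. With all libraries, edgeR's quasi-likelihood test on the recovered reads gave 15 higher and 21 lower, and DESeq2 21 and 21.

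Light polysomes differed from monosomes for few members. The test called 2 higher in light polysomes (2.94%, against 8.47% of all genes) and 5 lower (7.35%, against 10.2%), with a median log2 difference of -0.12 for members and 0.04 for all genes. PRPF18 was higher by 1.4 (SE 0.33, limma adjusted p = 0.0098; 0.145 without gradient 3). SNRNP27, which like SF3B6 had its largest share in light polysomes in every gradient, had 54.1%, 62.4% and 56.7% of its signal there, against 25.6%, 24.8% and 28% in monosomes, and was higher by 1.14 (SE 0.32, adjusted p = 0.0241; 0.253 without gradient 1 and 0.175 without gradient 3). LSM10 (-4.73, SE 0.53, adjusted p = 0.000116) and LSM11 (-2.14, SE 0.30, adjusted p = 0.000452), both of the U7 ring, were lowest.
PRPF40B (-1.75, adjusted p = 0.00547; 0.0569 without gradient 1 and 0.0964 without gradient 3), LSM7 (-1.69, adjusted p = 0.0478; 0.108 without the light library of replicate 2, 0.134 without gradient 1 and 0.0677 without gradient 3) and PRPF39 (-1.17, adjusted p = 0.0302; 0.307 without gradient 1 and 0.245 without gradient 3) were the other lower ones. With the replicate number as a block, 2 were higher and 9 lower. Without that light library 3 were higher and 5 lower, and without gradient 2, 4 were higher and 14 lower. Without gradient 1 the test called 1 higher and 2 lower, and without gradient 3, 0 higher and 2 lower (limma; 2 and 8 at an unadjusted p under 0.05). All light values lay above all monosome values for 4 members and below them for 13, against 17.6% and 18.1% of all genes kept.

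Load was next set against length. Across the 68 members MRL did not follow the deposited minimum transcript length: Spearman's rho was -0.048 and Pearson's r of the log2 values -0.048, against rho 0.026 over 12719 genes. These are descriptions across genes, which share libraries and are not independent. The deposited length was shorter than the coding sequence of the GENCODE 29 principal transcript for 29 of 68 members, and for 42.2% of the genes kept. PRPF8 is listed at 566 nt against a coding length of 7005 nt, SNRNP200 at 540 against 6408 nt, and LSM8 at 12384 against 288 nt. In the test against genes of similar deposited length, 24 members were higher (35.3%, against 23% of all genes) and 23 lower (33.8%, against 25%); without gradient 2, 24 were higher and 25 lower, and without gradient 1, 15 and 20. LSM10, LSM3, LSM7, SNRPG and LSM5 were lowest, and PRPF19, SNRPB, SF3B2, SART1 and U2AF2 were among the higher ones, as without length.

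**Figure D3:**
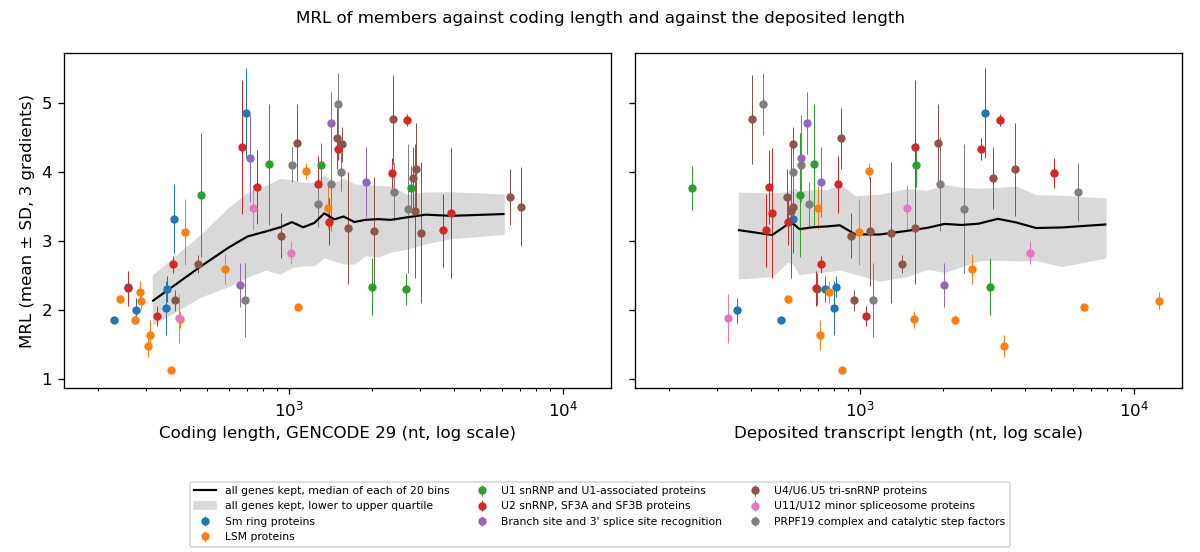
MRL of each member (y axis, mean and SD of 3 gradients) against GENCODE 29 coding length (left) and against the deposited transcript length (right), both in nt on log axes; colours are role groups, the line is the median of all genes kept in each of 20 length bins and the band runs from their lower to their upper quartile. The line climbs over the shorter genes in the left panel, where Spearman's rho of the members is 0.588. It runs from 2.14 in the shortest bin to 3.28 in the bin of 978 to 1074 nt. In longer bins it stays between 3.21 and 3.41. The line is nearly flat in the right panel, where rho is -0.048.

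Coding length, which was set against load after the deposited length had been seen to say little, was more closely related to load. Spearman's coefficient was 0.588 and Pearson's r 0.636 over the 68 members, against 0.253 and 0.311 over 12711 genes. By gradient, rho was 0.504, 0.827 and 0.448 for members and 0.160, 0.479 and 0.090 for all genes, so gradient 2 gave the closest relation in both. Of 19 members with coding lengths up to 400 nt, limma called 0 higher than the median gene and 17 lower (0 and 18 at an unadjusted p under 0.05), with mean loads from 1.14 for LSM10 to 3.33 for SNRPD3. Of 26 members above 400 and up to 1500 nt, 11 were higher and 4 lower, and of 23 members over 1500 nt, 11 were higher and 2 lower. Shares of all genes called were not counted by class. The 629 genes kept of up to 400 nt had median loads of 2.18, 2.02 and 2.21 in gradients 1, 2 and 3. The short members had 2.07, 1.83 and 2.23, so a low load was shared by short genes in general. Members over 1500 nt had lower medians than the middle class in gradients 1 and 3 and a higher one in gradient 2. Medians of the other classes are given below.

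A second test therefore set each gene against the median of genes in the same of 20 bins of coding length. It called 26 members higher (38.2%, against 24.3% of all genes) and 8 lower (11.8%, against 24.2%), with a median log2 difference of 0.11 for members and 0.00 for all genes. Of the 23 members lower than the median gene, 15 were no longer called against genes of their own coding length and 8 still were. The 15 hold the Sm genes SNRPD1, SNRPD2, SNRPE, SNRPF and SNRPG, the ring genes LSM1, LSM2, LSM5, LSM6 and LSM8, and LSM12, PHF5A, SF3B5, SNRNP25 and SNU13. SNRPG, for one, came to a log2 difference of -0.20 (SE 0.08, limma adjusted p = 0.0746), against -0.77 from the median gene. The first coding length bin, 75 to 402 nt, held 19 members and had a median MRL of 2.14 over its 636 genes.

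The 8 that stayed lower were LSM10 (-0.91, SE 0.09, limma adjusted p = 0.000275), LSM11 (-0.65, SE 0.09, adjusted p = 0.000862), CWC15 (-0.56), LSM3 (-0.53), PRPF40B (-0.52), PRPF39 (-0.51), U2AF1L4 (-0.39) and LSM7 (-0.39). LSM10 and LSM11 are both subunits of the U7 ring, and PRPF39 and PRPF40B are both U1-linked. Without gradient 1 the calls of LSM7 (adjusted p = 0.0551) and U2AF1L4 (0.129) ended; the other 6 passed without each gradient in turn.

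Of the 22 members higher than the median gene, 21 were also higher than genes of their coding length, the exception being SF1 (adjusted p = 0.064). A further 5 were higher only in that comparison: SNRPD3 (0.63, SE 0.07, limma adjusted p = 0.00037), SNRPC (0.46, SE 0.10, adjusted p = 0.00545), SF3B6 (0.32, SE 0.07, adjusted p = 0.00526), SNRPA1 (0.26, SE 0.07, adjusted p = 0.0189) and LSM4 (0.25, SE 0.08, adjusted p = 0.0243). SNRPD3 has a coding sequence only slightly longer than that of LSM10, 378 against 369 nt, and its MRL of 3.52, 2.76 and 3.71 lay above the 1.12, 1.10 and 1.19 of LSM10 in each gradient. SNRPB (0.64, SE 0.06, adjusted p = 0.000237) and PRPF19 (0.60, SE 0.07, adjusted p = 0.000349) were among the members furthest above their bins. Of the 26 calls, 17 held without each gradient in turn; LSM4 and SNRPA1 lost theirs without gradient 1 (adjusted p = 0.196 and 0.164) and without gradient 3 (0.109 and 0.0899). Without gradient 2, 28 members were higher and 12 lower, and without gradient 1, 17 and 6. With the summed polysome share, 14 were higher and 5 lower, and with 10 bins 26 were higher and 13 lower.

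**Figure D4:**
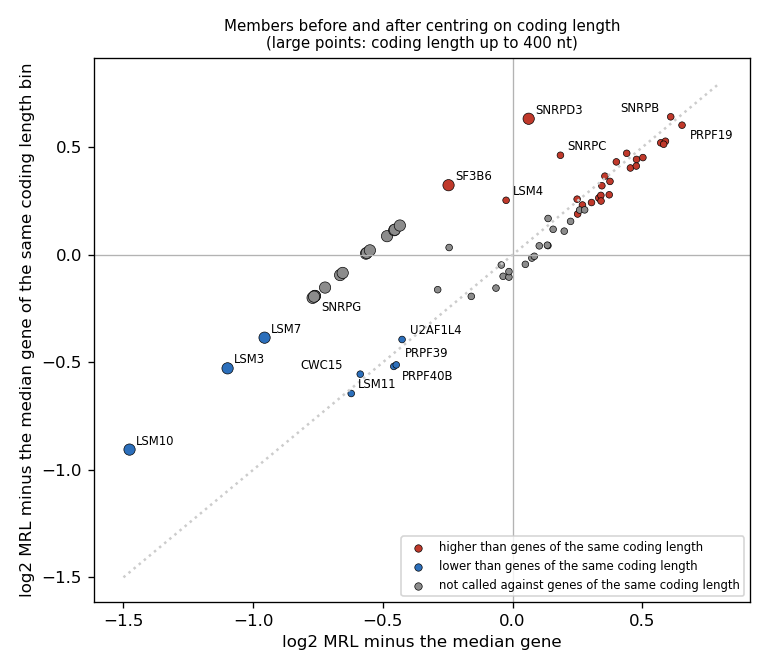
Log2 MRL of each member relative to the median gene of its coding length bin (y axis) against the same relative to the median of all genes kept (x axis); red points were called higher and blue points lower than genes of the same coding length, and large points have coding lengths up to 400 nt. Large points lie above the dotted line of equality, most of them near 0 on the y axis, while LSM10 (-0.91) stays low and SNRPD3 (0.63) is high.

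By role group, the comparison at equal coding length called higher 7 of 12 U2 genes, 6 of 15 tri-snRNP genes, 4 of 6 U1 genes, 3 of 8 PRPF19 complex genes and 2 of 4 branch site genes. It called lower 2 U1 genes, 1 PRPF19 complex gene and 1 branch site gene. Among the Sm and LSM genes it called 2 of 7 Sm genes higher, and 2 of 13 LSM genes higher and 4 lower. LSM14B, a larger relative that is not in the rings, is 1 of the 2 higher LSM genes. Of the 3 U11/U12 genes, SNRNP35 and SNRNP48 came nearest to the threshold, at an adjusted p of 0.107 each.

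Gradients differed in how load depended on length, in members and in all genes alike. Among the 19 members up to 400 nt, gradient 2 gave the lowest MRL for 18, and among the 26 above 400 and up to 1500 nt for 21. Among the 23 over 1500 nt it gave the highest for 18, SF3B1, PRPF4B, CWC22, SART3, PRPF3 and PRPF38B among them. Median MRL of the long members was 3.75, 4.17 and 3.45 in gradients 1, 2 and 3, and that of the long genes kept was 3.26, 3.55 and 3.18. The middle class had 3.93, 3.15 and 3.84 for members and 3.18, 2.93 and 3.24 for all genes, and the short class 2.07, 1.83 and 2.23 for members and 2.18, 2.02 and 2.21 for all genes. Between gradients, MRL of the members correlated at 0.757 for gradients 1 and 2, 0.948 for 1 and 3 and 0.687 for 2 and 3 (Pearson). Gradient 2 is the one whose light library stood with the heavy libraries; the part of that library in the length pattern was not tested.

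**Figure D5:**
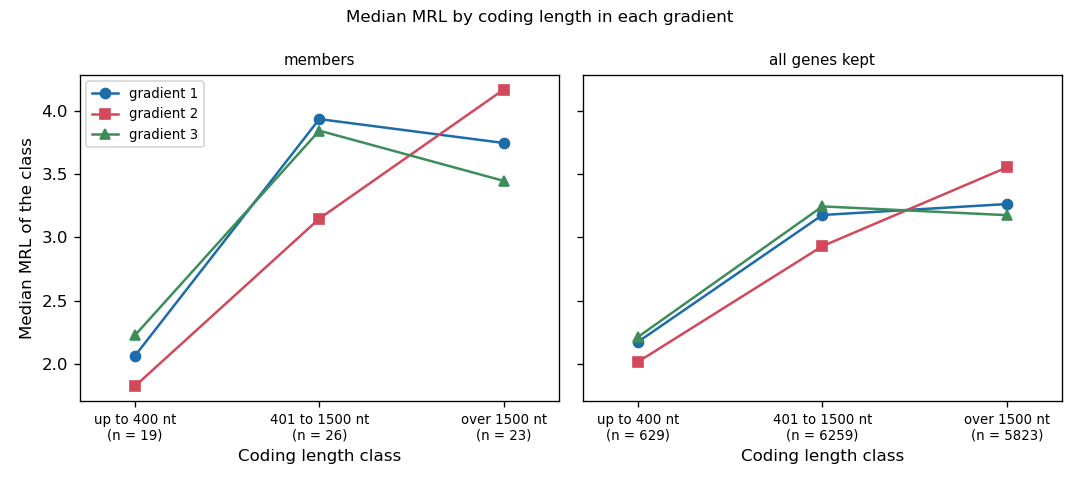
Median MRL (y axis) of members (left) and of all genes kept (right) in 3 classes of coding length (x axis, nt), with a line for each gradient. In both panels gradient 2 lies below the others in the short and middle classes and above them over 1500 nt, where the member medians are 3.75, 4.17 and 3.45 in gradients 1, 2 and 3.

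Other features were set against load as well. The length of the whole principal transcript had a rho of 0.259 with MRL in members (0.205, 0.541 and 0.130 in gradients 1, 2 and 3) and 0.126 in all genes. Mean reads per library had a rho of -0.145 in members (-0.032, -0.367 and -0.056 by gradient) and 0.159 in all genes. The 5' leader, the stretch before the start codon, had a median of 162 nt in members and 204 nt in the genes kept, and its length had a rho of 0.063 with MRL in members and 0.007 in all genes. An ATG lay upstream of the start codon in the leaders of 33 of 68 members (48.5%), against 53.3% of 12682 genes. The 33 with an upstream ATG had a median MRL of 3.16, with 5 called higher and 12 lower, and the 35 without had 3.78, with 17 higher and 11 lower. Over all 12682 genes the medians were 3.12 with and 3.31 without. The 6757 genes with an upstream ATG had 1286 called higher and 1866 lower. Genes without one had 1506 called higher and 1254 lower. LSM10 and LSM3 each have 2 such ATGs by this annotation and LSM11 and LSM7 have 0. SNRNP27 has the most, 14 (log2 difference -0.24, not called). SF3A3, called higher, has 8, and LSM12, called lower, has 4. GC content of the coding sequence had a rho of 0.273 with MRL in members and -0.046 in all genes.

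Genes that work with the members were set beside them. Of 44 other spliceosome genes 18 were called higher and 4 lower by MRL, with a median of 3.63 ± 0.16 (SD, n = 3 gradients). CTNNBL1, a PRPF19 complex partner, was highest of the called ones at 4.61 ± 0.28 and PUF60, which helps U2AF, next at 4.47 ± 0.35. RNPC3, a U11/U12 protein, was lowest at 2.01 ± 0.37 and LUC7L, a homolog of a yeast U1 protein, next at 2.10 ± 0.040. Of 20 factors that assemble snRNPs 5 were higher and 2 lower. WDR77 (4.54 ± 0.55), of the methylosome that modifies Sm proteins, and PHAX (4.02 ± 0.47), the snRNA export adaptor, were on the high side, while USB1 (1.86 ± 0.23), which trims U6 snRNA, and GEMIN7 (2.43 ± 0.19), of the SMN complex, were on the low side.
Decapping partners of the cytoplasmic LSM ring had 1 of 8 genes higher, EDC3 at 4.27 ± 0.024. Of 7 histone mRNA 3' end partners of LSM10 and LSM11, 4 were higher, among them FIP1L1, of the general cleavage machinery, at 4.49 ± 0.34 and SLBP, the stem-loop binding protein, at 4.11 ± 0.34. LSM10 and LSM11 themselves were called lower, as above. All of these counts are from limma at an adjusted p under 0.05, beside 22% of all genes higher and 24.7% lower.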

How the data were processed

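Polysome fractions of vehicle-treated HEK293 cells were sequenced as single-end reads of 75 nt, per the labels' protocols. Genes were counted with featureCounts and the build was GRCh38, per the submitters' processing notes; the aligner and counting options, such as strand use, were not given in the sources used here. Each signal value deposited by the authors was a whole number of reads times 1 factor of its library, for 100% of the values (tolerance 0.01 reads). The percent of a gene in a fraction, deposited by the authors, is its share of that signal among the fractions of 1 gradient; recomputing it left gaps of at most 5.5e-08. The mean ribosome load deposited by the authors is a score; its weights were solved from the table, with a gap of at most 4.61e-09. The log2 polysome enrichment deposited by the authors was not used. The deposited length is the column of minimum transcript length, in nt.

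The 68 members and the gene lists were chosen with earlier results of these data known. Genes were kept where recovered reads averaged 10 or more per library and every gradient had some (12720 of 13661, 941 removed). Two-sided limma tests (3.58.1, trend) used Benjamini-Hochberg adjustment over all genes kept. Each gradient gave 1 log2 load per gene, centred on the median gene, on 20 bins of deposited length or, added after the data were seen, on 20 bins of GENCODE 29 coding length (principal transcript, stop codon not counted). Fractions were compared on log2(signal + 1) with the 9 libraries in 1 fit, since the values are normalized; edgeR (4.0.16) and DESeq2 (1.42.0) on recovered reads were alternatives, as were other pseudocounts, filters, scalings and each replicate left out. The scripts were tested on simulated data.

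The replicate number pairs the libraries because the labels give it as a batch. Deviations from the fraction means of same-numbered libraries correlated between -0.539 and 0.391. Those of differently numbered libraries correlated between -0.447 and 0.394. The ranges are alike, so the pairing rests on the labels alone. Named were the 2 highest and 2 lowest members of each role group by load, the 5 highest and 5 lowest called members of each test with the same direction in every replicate, and the 2 highest and 2 lowest called genes of each other list. Members that changed call between the length comparisons, and those used to show spread or length (such as PRPF8, SF3B1 and PRPF4B), were named after their values were seen. 1 member is counted but not reported by name. Replicate error is given in place of counting intervals.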

Additional observations from a re-analysis of the deposited data

How the results depend on the processing

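When load was replaced by the summed share of light and heavy polysomes, 13 members were higher and 12 lower than the median gene, and 14 higher and 12 lower than genes of similar deposited length. With coding length in place of the deposited length, 8 were lower, and Spearman's rho with load was 0.588. For light polysomes over monosomes, 9 members were lower with the replicate block and 8 with DESeq2; for heavy over light polysomes, 26 were higher without the light library of replicate 2. The block changed no other count of calls by over 1.5 times (21 higher and 23 lower for heavy polysomes over monosomes, 20 and 21 for heavy over light).

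Leaving out each replicate gave 13 to 25 members higher and 19 to 24 lower than the median gene, and 15 to 24 higher and 20 to 25 lower than genes of similar deposited length. Heavy polysomes over monosomes ran from 10 to 25 higher and 16 to 27 lower, light over monosomes from 0 to 4 higher and 2 to 14 lower, and heavy over light from 0 to 30 higher and 0 to 22 lower.

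Against the median gene, leaving out each replicate gave CWC22 log2 differences from -0.11 to 0.23 and SNRPD3 from -0.02 to 0.19; with the polysome share, SNRNP27 came to 0.10 and SNRNP35 to -0.12. Against genes of similar deposited length, LSM4 came to -0.01 with CPM scaling and to -0.04 to 0.13 with each replicate left out, SNRPD3 to -0.03 to 0.17 with each replicate left out, SF3B6 to 0.05 with the polysome share and 0.32 with coding length, and SNRPC to -0.02 with the polysome share. Of these reversed values, that of SF3B6 with coding length passed the threshold (limma adjusted p = 0.00526); the cause was not tested. Among values of named genes, 21 of 288 ended below the threshold in the first test, 9 of 200 against similar lengths, 11 of 70 for light over monosomes and 20 of 100 for heavy over light.

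An alternative with RefSeq protein lengths was not run. With 3 gradients, 1 of which differs in its light library, small differences in load could not be resolved. Reads of overlapping genes and of pseudogene copies limit SNRPB, SNRPD3, SNRPG, SNRPC and PRPF40B among others.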
